A study of Mus musculus with 6 samples.

Results

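The alcohol, aldehyde and retinal dehydrogenases of the liver were described here by 9 genes, *Adh1*, *Adh4*, *Adh5*, *Aldh1a1*, *Aldh1a7*, *Aldh2*, *Aldh3a2*, *Aldh8a1* and *Aox3*. They were taken by gene symbol from the 55401 genes of an RNA-Seq table of mouse liver. The study compared livers of 3 WT mice with livers of 3 *Asgr1*-/- mice, all C57BL/6 males of 13 weeks that had gone without food overnight, with 1 library from each mouse. *Asgr1* encodes the major subunit of the asialoglycoprotein receptor of hepatocytes. The *Asgr1*-/- mice were made with CRISPR/Cas9 and a pair of sgRNAs that removed all exons of the gene, and WT mice came from the same heterozygous crosses. The knockout is present in the whole body and from conception, so these livers do not separate an effect in hepatocytes from one that began in another organ. None of the 9 genes passed the test for a difference between the genotypes. *Adh1* was the gene with the clearest separation, with mRNA 1.22-fold as high in *Asgr1*-/- livers and all 3 of these livers above all 3 WT livers, but its difference did not hold after adjustment for the number of genes tested.

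As background, alcohols are cleared in the liver in consecutive oxidations. Cytosolic alcohol dehydrogenases convert ethanol, retinol and other alcohols to aldehydes, and aldehyde dehydrogenases in the cytosol, mitochondria and endoplasmic reticulum convert the aldehydes to acids, both with NAD+ as the main electron acceptor. The same chemistry makes retinoic acid from vitamin A by way of retinal, and aldehyde oxidases, which carry a molybdenum cofactor and pass electrons to oxygen, oxidize some of the same aldehydes and many drugs.

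The 9 genes lie at 6 places of the genome (build GRCm38, gene spans as deposited with the counts). *Adh1* (ENSMUSG00000074207) at chr3:138260991-138290698, *Adh4* (ENSMUSG00000037797) at chr3:138415466-138430892 and *Adh5* (ENSMUSG00000028138) at chr3:138443093-138455499 stand in a row on the plus strand of chromosome 3. *Aldh1a1* (ENSMUSG00000053279) at chr19:20492715-20643465 on the plus strand and *Aldh1a7* (ENSMUSG00000024747) at chr19:20692953-20727562 on the minus strand are neighbors on chromosome 19, with 49487 bases between them. *Aldh2* (ENSMUSG00000029455) lies at chr5:121566027-121593824 on the minus strand, *Aldh3a2* (ENSMUSG00000010025) at chr11:61223417-61267464 on the minus strand, *Aldh8a1* (ENSMUSG00000037542) at chr10:21377291-21396585 on the plus strand and *Aox3* (ENSMUSG00000064294) at chr1:58113130-58200698 on the plus strand. All are annotated as protein-coding in GENCODE M21.

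The sequences before the start sites are shown for the clustered genes, because the genes of each cluster are of 1 family and are compared with each other here. They are taken from RefSeq (GRCm38.p6), read 5′ to 3′ on the strand of the gene, and end just before the annotated exon that holds the start. For *Adh1* (chr3:138277335-138277493, plus strand) no searched motif lies in the stretch printed, and TTGCAA, 40 bases before the RefSeq start, falls in what GENCODE gives as its first transcript. For *Adh4* (chr3:138415247-138415465, plus strand) capitals mark AGGTCA, a half-site of nuclear receptors, and the reverse complement of CCAAT. Another AGGTCA, 11 bases before the RefSeq start of *Adh4*, falls in the exon bases that are not printed. For *Adh5* (chr3:138442843-138443092, plus strand) capitals mark the reverse complement of GGGCGG, the GC box.
Adh1: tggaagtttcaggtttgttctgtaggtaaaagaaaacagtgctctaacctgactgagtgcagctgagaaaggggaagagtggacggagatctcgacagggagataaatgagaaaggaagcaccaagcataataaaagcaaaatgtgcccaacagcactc
Adh4: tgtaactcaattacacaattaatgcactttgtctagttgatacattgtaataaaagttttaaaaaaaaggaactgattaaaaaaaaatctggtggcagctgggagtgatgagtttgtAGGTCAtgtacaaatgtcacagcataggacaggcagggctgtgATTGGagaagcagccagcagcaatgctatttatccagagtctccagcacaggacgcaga
Adh5: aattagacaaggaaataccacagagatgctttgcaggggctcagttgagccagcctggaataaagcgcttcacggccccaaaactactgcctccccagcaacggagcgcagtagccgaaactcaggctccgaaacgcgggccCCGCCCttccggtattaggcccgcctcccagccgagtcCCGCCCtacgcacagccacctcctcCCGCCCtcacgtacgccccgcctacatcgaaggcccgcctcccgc
The stretch before *Adh5* was rich in CpG, with 63.6% G and C and 21 CpG dinucleotides in 250 bases. The 250 bases before the RefSeq start of *Adh1* had 44.8% G and C and 5 CpG, and those before *Adh4* had 41.6% and 1 CpG.

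For *Aldh1a1* (chr19:20601718-20601960, plus strand) and *Aldh1a7* (chr19:20727563-20727806, minus strand) the capitals mark the longest run of equal bases that both genes share before their starts.
Aldh1a1: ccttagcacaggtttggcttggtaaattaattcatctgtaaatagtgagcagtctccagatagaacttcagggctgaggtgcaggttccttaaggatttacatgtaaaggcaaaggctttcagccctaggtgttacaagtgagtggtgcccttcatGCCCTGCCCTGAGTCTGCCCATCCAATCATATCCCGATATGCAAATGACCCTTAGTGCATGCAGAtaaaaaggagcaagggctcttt
Aldh1a7: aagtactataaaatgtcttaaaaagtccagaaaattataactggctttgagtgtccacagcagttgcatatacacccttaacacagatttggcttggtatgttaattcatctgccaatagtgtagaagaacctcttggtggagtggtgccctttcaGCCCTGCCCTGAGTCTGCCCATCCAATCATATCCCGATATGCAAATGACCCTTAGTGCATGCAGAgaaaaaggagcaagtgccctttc
This shared run is 65 bases long and lies from 94 to 30 bases before the start in both genes. It holds CCAAT and the octamer ATGCAAAT, and the octamer also occurs before *Aldh8a1*. The motifs searched on both strands of the 250 bases before each start were the TATA box TATAAA, the CCAAT box, the C/EBP half-site TTGCAA, the octamer ATGCAAAT, the E-box CACGTG, the nuclear receptor half-site AGGTCA and the GC box GGGCGG, none of which contains another. Of 32851 mouse promoters in the same table, 1.6% held the octamer, 33.8% the CCAAT box, 32.7% the GC box, 14% the nuclear receptor half-site, 12.4% the TATA box, 6.02% the E-box and 5.34% the C/EBP half-site. A match is a description of the letters and not a bound site. A promoter entry was matched for 8 of the 9 genes. *Aldh2* was not among them.

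The 6 libraries held 19842637 to 22080809 counts, and the 9 genes took 0.9237% to 1.148% of them. The deleted gene *Asgr1* gave 15894, 15463 and 11716 counts in the WT livers but only 62, 40 and 36 in the *Asgr1*-/- livers, a log2 fold change of -8.36 (95% interval -8.88 to -7.85, adjusted p = 2.3e-07, edgeR's quasi-likelihood test with Benjamini-Hochberg adjustment). Values of single livers are given throughout in the order of livers 1, 2 and 3 of a genotype. The tissue label fits its markers, as 10 of 10 hepatocyte markers were above the limit for testing. Of these 0 passed the test and 0 had an unadjusted p under 0.05 in edgeR, with the smallest p for *Alb*, *Ttr* and *Fgb*. The WT livers differed among themselves in markers of other cells, as the summed level of 14 Kupffer cell markers was 97.6, 273 and 900 CPM in the WT livers and 351, 276 and 219 CPM in the *Asgr1*-/- livers. In bulk tissue, fewer cells of a type and less RNA per cell cannot be told apart. CPM are counts scaled to the size of the library with TMM factors, and they were used to compare livers for a gene. FPKM, which also divide by the exonic length of a gene, were used wherever genes were compared with each other.

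*Adh1*, the class I alcohol dehydrogenase that carries most ethanol oxidation in the liver and also acts on retinol, was by far the most abundant of the 9 mRNAs. Its FPKM were 1628, 1774 and 1556 in the WT livers and 2106, 1992 and 2173 in the *Asgr1*-/- livers, which placed it at rank 33 of the tested genes. *Aldh2*, which encodes the mitochondrial enzyme for acetaldehyde, followed with 509 ± 33.6 FPKM in the WT and 547 ± 23.1 FPKM in the *Asgr1*-/- livers (SD, n = 3 mice). *Aldh1a1*, the cytosolic retinal dehydrogenase, came next with 401 ± 65.7 FPKM in the WT and 382 ± 9.69 FPKM in the *Asgr1*-/- livers (SD, n = 3 mice). The ranges of these 3 genes over the 6 livers did not touch each other or those of the other genes.

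The other 6 genes lay between 41.6 and 118 FPKM in single livers, and each overlapped with its neighbor in the order *Aldh1a7*, *Adh4*, *Aldh3a2*, *Adh5*, *Aldh8a1* and *Aox3*. Their mean FPKM over the 6 livers were 102, 86.9, 86.5, 72.8, 69.1 and 54.2, so neighbors in this order are not resolved by the spread between livers. By the deposited lengths, the lowest *Aldh1a7* value, 86.9 FPKM, lay above the highest values of *Adh5*, *Aldh8a1* and *Aox3*, at 79, 74.1 and 72.1 FPKM.

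**Figure D1:**
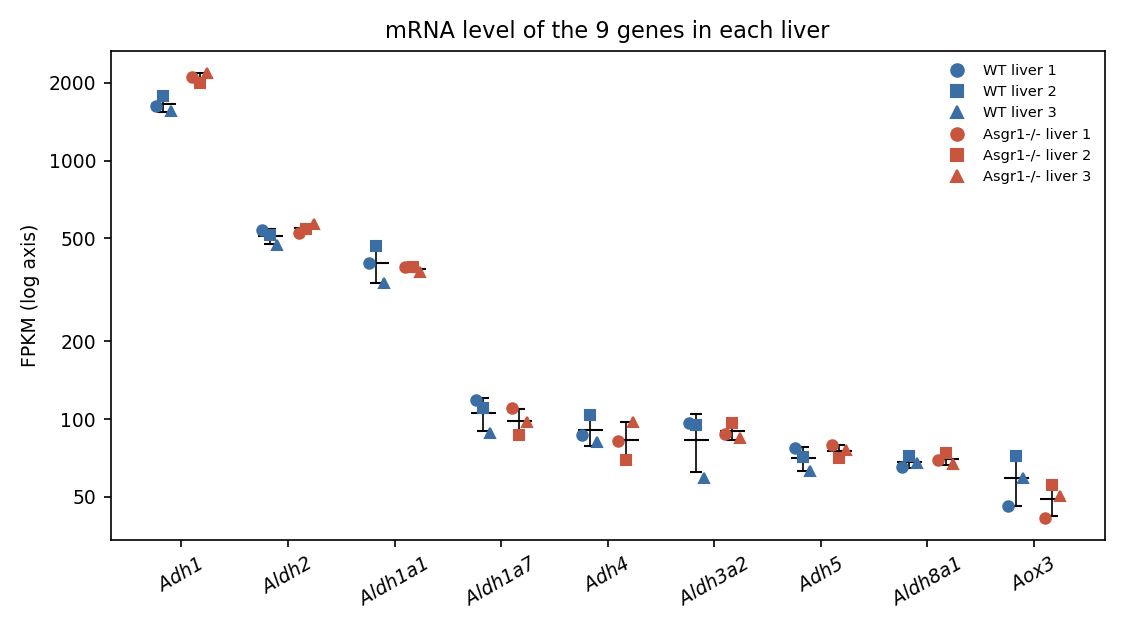
FPKM of the 9 genes in each of the 6 livers on a log axis, with the mean and SD of each genotype (n = 3 livers) as a black mark and bar. *Adh1* lies between 1556 and 2173 FPKM, *Aldh2* and *Aldh1a1* between 336 and 570 FPKM, and the other 6 genes between 41.6 and 118 FPKM.

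The place of a gene in this order also depended on the length by which its counts were divided. The table divides by the length of all exons annotated to a gene, which for *Adh5* is 5408 bases, whereas its first GENCODE transcript, with 9 exons, is 1604 bases long. With the length of that first transcript, an alternative chosen after seeing the data, the mean level of *Adh5* over the 6 livers was 246 in place of 72.8 FPKM. *Adh5* then stood at rank 4 of 9 instead of rank 7, with a range apart from that of the gene below it. *Aldh1a1* (4937 against 2053 bases) passed *Aldh2* (5126 against 3867 bases), at 941 against 700 on this scale. *Aldh1a7*, whose 2 lengths are equal, fell from rank 4 to rank 7. Its range of 86.9 to 118 then lay below those of *Adh5* (211.6 to 266.5) and *Aldh8a1* (126.8 to 144). *Adh4* fell from rank 5 to rank 8. *Adh1* stayed first and *Aox3* last. The genotype comparison is made within a gene and does not depend on this length.

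For the class I enzyme gene *Adh1*, the levels were 3721, 4078 and 3492 CPM in the WT livers and 4553, 4374 and 4815 CPM in the *Asgr1*-/- livers. The lowest *Asgr1*-/- liver lay above the highest WT liver. The mean was 3764 ± 296 CPM in the WT and 4581 ± 222 CPM in the *Asgr1*-/- livers (SD, n = 3 mice). On the log2 scale the difference was 0.28 with a standard error of 0.12, or 1.22-fold with a 95% interval of 1.02 to 1.46. In edgeR's quasi-likelihood test the unadjusted p was 0.0359 and the adjusted p was 0.285 over all genes tested (Benjamini-Hochberg). The unadjusted p of *Adh1* was above 0.05 in edgeR without WT liver 1 (0.0505), WT liver 3 (0.0975), *Asgr1*-/- liver 1 (0.0787) or *Asgr1*-/- liver 3 (0.103), which is 4 of the 6 fits that leave out a liver, with log2 fold changes of 0.23 to 0.34 over all 6. *Adh1* was thus not called, and its 95% interval ended below 1.5-fold. *Gm16559*, an antisense gene that overlaps *Adh1*, had only 56 to 144 counts in a liver against at least 69966 for *Adh1*.

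*Adh4* encodes the class II enzyme, which acts on retinol and on ethanol at high concentrations. Its levels were 128, 155 and 118 CPM in the WT livers and 115, 99.3 and 141 CPM in the *Asgr1*-/- livers. The genotypes overlapped, with the highest value in WT liver 2 and the lowest in *Asgr1*-/- liver 2. Its log2 fold change was -0.18 (95% interval -0.52 to 0.17, adjusted p = 0.612, edgeR's quasi-likelihood test).

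*Adh5* encodes the class III enzyme, which oxidizes the glutathione adduct of formaldehyde and reduces S-nitrosoglutathione and is found in nearly all tissues. It had 427, 398 and 341 CPM in the WT livers and 414, 375 and 408 CPM in the *Asgr1*-/- livers. All 3 *Asgr1*-/- livers lay within the range of the WT livers. The log2 fold change was 0.04 (95% interval -0.23 to 0.30, adjusted p = 0.907, edgeR's quasi-likelihood test) and turned to -0.05 when WT liver 3 was left out.

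Ratios within a liver were taken of *Adh1* to *Adh4*, *Adh5*, *Aldh2* and *Aldh1a1*, and not to the other genes. In each *Asgr1*-/- liver these ratios were higher than in any WT liver. The share of other gene pairs without overlap was not computed. The ratio of *Adh1* to *Adh4* FPKM was 18.8, 17.1 and 19.2 in the WT livers and 25.6, 28.6 and 22.2 in the *Asgr1*-/- livers. The ratio of *Adh1* to *Aldh1a1* FPKM was 4.07, 3.8 and 4.64 in WT and 5.42, 5.15 and 5.86 in *Asgr1*-/- livers, in the same order. Relative to *Aldh2*, it was 3.02, 3.44 and 3.29 in WT and 4.02, 3.65 and 3.81 in *Asgr1*-/- livers. None of these ratios overlapped between the genotypes, nor did that of *Adh1* to *Adh5*, with means of 23.6 ± 2.15 in the WT and 27.8 ± 1.04 in the *Asgr1*-/- livers (SD, n = 3 mice). All 4 ratios share the *Adh1* values, so they are not separate observations, and they carry no test. Among the ratios not taken, that of *Adh1* to *Aldh3a2* overlaps between the genotypes. WT liver 3 had 1556 FPKM of *Adh1* and 58.95 FPKM of *Aldh3a2*, a higher ratio than *Asgr1*-/- liver 2 with 1992 and 96.69 FPKM. The ratio of *Aldh2* to *Aldh1a1*, in which *Adh1* has no part, overlapped, with 1.29 ± 0.161 in WT and 1.43 ± 0.0962 in *Asgr1*-/- livers (SD, n = 3 mice).

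**Figure D2:**
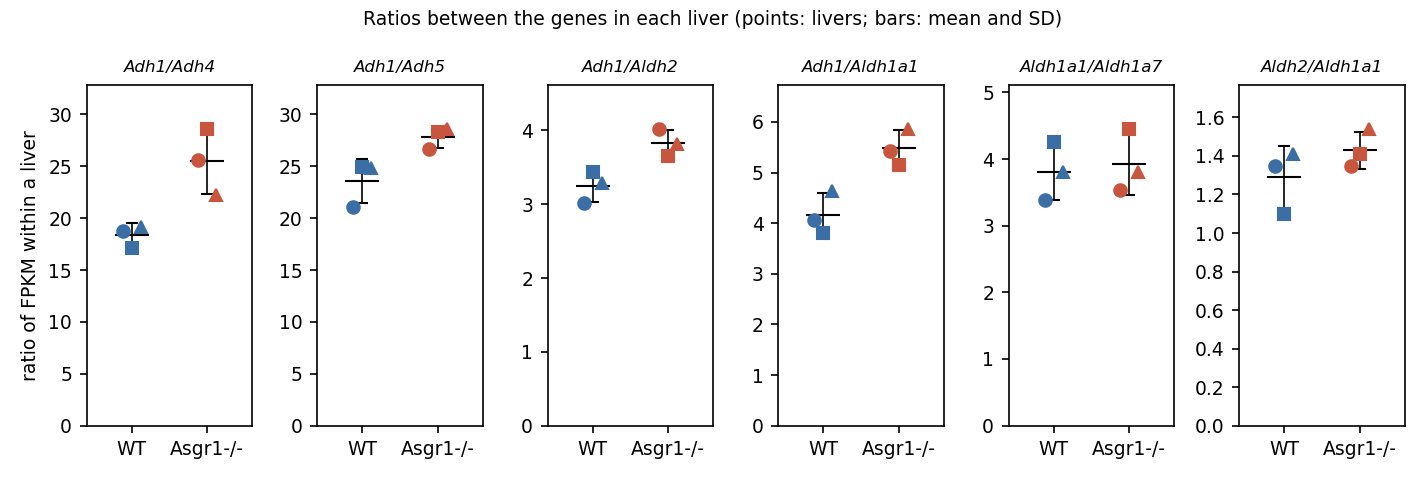
Ratios of FPKM between pairs of the genes within each liver (vertical axes, no unit, each starting at 0), with the mean and SD of each genotype (n = 3 livers). The 4 ratios that have *Adh1* on top lie higher in all 3 *Asgr1*-/- livers than in any WT liver, while *Aldh1a1* to *Aldh1a7* and *Aldh2* to *Aldh1a1* overlap.

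Summed over *Adh1*, *Adh4* and *Adh5*, the level was 1814 ± 126 FPKM in the WT and 2249 ± 109 FPKM in the *Asgr1*-/- livers (SD, n = 3 mice), which is nearly all *Adh1*. The sum of the 5 Aldh genes was 1167 ± 126 FPKM in the WT and 1186 ± 5.7 FPKM in the *Asgr1*-/- livers (SD, n = 3 mice). The mean of the Aldh sum thus differed between the genotypes by less than the SD among WT livers.

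*Aldh2*, the enzyme gene for the second step of ethanol clearance, had 2828, 2718 and 2434 CPM in the WT livers and 2602, 2749 and 2901 CPM in the *Asgr1*-/- livers. The genotypes overlapped, with the lowest value in WT liver 3 and the highest in *Asgr1*-/- liver 3. Its log2 fold change was 0.05 (95% interval -0.21 to 0.31, adjusted p = 0.873, edgeR's quasi-likelihood test) and became -0.01 without WT liver 3.

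*Aldh1a1* had 2023, 2374 and 1665 CPM in the WT livers and 1856, 1876 and 1816 CPM in the *Asgr1*-/- livers. The *Asgr1*-/- livers lay close together and inside the spread of the WT livers, with a coefficient of variation of 1.66% against 17.5% in WT. The log2 fold change was -0.13 (95% interval -0.44 to 0.19, adjusted p = 0.705, edgeR's quasi-likelihood test).

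*Aldh1a7* is a rodent paralog of *Aldh1a1*, known in mice as inducible by phenobarbital. It had 250, 234 and 183 CPM in the WT livers and 220, 177 and 199 CPM in the *Asgr1*-/- livers, and the genotypes overlapped. The log2 fold change was -0.16 (95% interval -0.48 to 0.16, adjusted p = 0.615, edgeR's quasi-likelihood test). The ratio of *Aldh1a1* to *Aldh1a7* FPKM was 3.38, 4.25 and 3.81 in the WT livers and 3.53, 4.45 and 3.81 in the *Asgr1*-/- livers, nearly the same range in both genotypes. Summed, both genes reached 506 ± 77.5 FPKM in the WT and 480 ± 16.1 FPKM in the *Asgr1*-/- livers (SD, n = 3 mice).

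The counts of *Aldh1a1* and *Aldh1a7* rest on telling closely similar mRNAs apart. Their coding sequences, both 1503 bases long, differ at 126 bases and are 91.6% identical. The longest run without a difference is 100 bases, and 7.53% of the 50-base windows of the first *Aldh1a1* transcript occur in *Aldh1a7* as well, but only 0.0512% of the 100-base windows and 0% of the 150-base windows. The stretch of 120 coding bases with the most differences, from coding base 877 to 996, is shown with its 24 differing bases in capitals, since reads from such stretches assign a count to one gene or the other.
Aldh1a1: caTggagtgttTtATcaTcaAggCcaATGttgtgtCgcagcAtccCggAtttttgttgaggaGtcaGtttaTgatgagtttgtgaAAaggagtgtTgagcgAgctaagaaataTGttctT
Aldh1a7: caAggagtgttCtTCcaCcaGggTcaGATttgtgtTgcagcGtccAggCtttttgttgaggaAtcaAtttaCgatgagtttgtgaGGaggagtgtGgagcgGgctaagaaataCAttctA
The sources used here do not give the read length or the treatment of reads that match both genes, so both values are uncertain to that extent. Among the other 7 genes, *Adh1* shares 0.277% of its 50-base windows with *Adh6-ps1* and the rest share 0% with other genes.

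*Aldh3a2* encodes the fatty aldehyde dehydrogenase of the endoplasmic reticulum, which is mutated in Sjögren-Larsson syndrome in humans. Its levels were 554, 547 and 333 CPM in the WT livers and 477, 534 and 471 CPM in the *Asgr1*-/- livers. WT liver 3 stood well below the other 5 livers, and the other 2 WT livers lay above all *Asgr1*-/- livers. The log2 fold change was 0.05 (95% interval -0.37 to 0.47, adjusted p = 0.93, edgeR's quasi-likelihood test) with all livers and -0.16 without WT liver 3.

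*Aldh8a1* encodes a cytosolic enzyme that acts on retinal and on an aldehyde of tryptophan breakdown. It had 293, 324 and 297 CPM in the WT livers and 295, 320 and 291 CPM in the *Asgr1*-/- livers, nearly the same in both genotypes. The log2 fold change was -0.01 (95% interval -0.24 to 0.22, adjusted p = 0.965, edgeR's quasi-likelihood test), close enough to 0 that its sign changed with the scaling, to 0.04 on total counts.

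*Aox3*, an aldehyde oxidase gene of mouse liver, had the lowest mean of the 9 genes in FPKM and, with all livers, the most negative log2 fold change. Its levels were 332, 522 and 419 CPM in the WT livers and 283, 385 and 351 CPM in the *Asgr1*-/- livers. WT liver 1 lay within the *Asgr1*-/- range and the other 2 WT livers above it. The log2 fold change was -0.32 (95% interval -0.72 to 0.08, adjusted p = 0.418, edgeR's quasi-likelihood test), with a lower limit of 0.607-fold. Leaving out WT liver 1 gave -0.47 and leaving out WT liver 2 gave -0.15, and without *Asgr1*-/- liver 1 *Aldh1a7* was more negative, at -0.23 against -0.20.

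**Figure D3:**
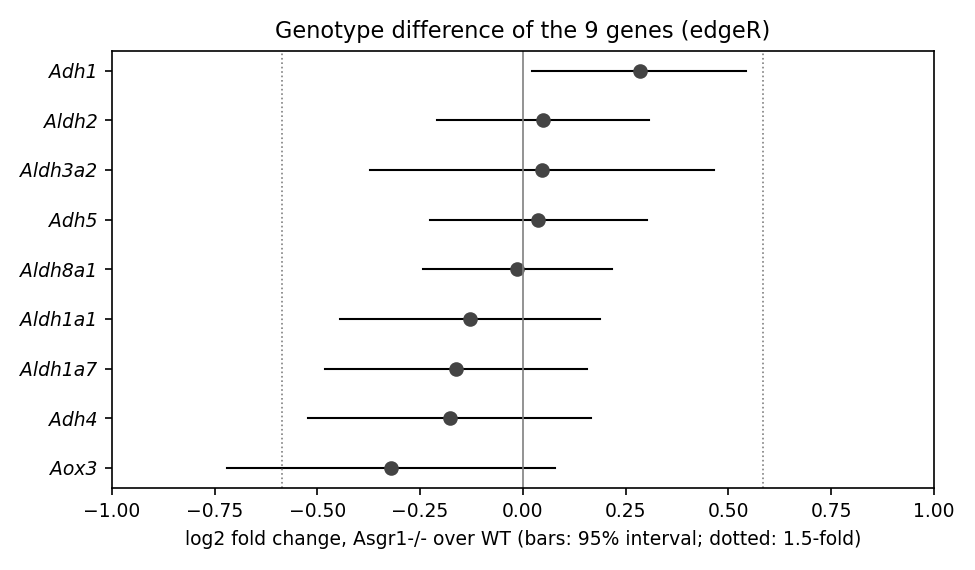
Log2 fold change of each of the 9 genes, *Asgr1*-/- over WT, with its 95% interval from edgeR (n = 3 livers in each genotype). The intervals of 8 genes include 0, that of *Adh1* runs from 0.02 to 0.54, and only that of *Aox3* passes a dotted line at 1.5-fold, toward lower levels.

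In all, 0 of the 9 genes passed an adjusted p of 0.05 in edgeR's quasi-likelihood test, where 0.295% of the 10167 genes tested did. At an unadjusted p under 0.05 there was 1 of 9, *Adh1*, where 15.5% of all genes tested reached that level. The *Asgr1*-/- livers were all above the WT livers for 1 of 9, again *Adh1*, against 10.9% of all genes tested. These shares are near the background, so the 9 genes did not stand out by their number of differences. DESeq2 and limma on log2 FPKM also called 0 of the 9. Their median log2 fold change was -0.01, against -0.02 over all genes, and their median absolute log2 fold change was 0.13, against 0.17. The lowest limit of the 9 95% intervals was 0.607-fold, for *Aox3*, and the highest was 1.46-fold, for *Adh1*, and the intervals of single genes were narrower, such as 0.844-fold to 1.16-fold for *Aldh8a1*.

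The 9 genes varied more among WT livers than among *Asgr1*-/- livers. The coefficient of variation was larger in WT for 8 of the 9 genes, with *Adh4* as the exception, and for 66.1% of all genes tested. Its median over the 9 genes was 14.2% in WT and 5.43% in *Asgr1*-/- livers, against 13.8% and 9.85% over all genes. WT liver 3 had the lowest WT level for 7 of the 9 genes, all but *Aldh8a1* and *Aox3*, whereas it was the lowest of the WT livers for 31.6% of all genes. WT liver 3 was also the one with 900 CPM of Kupffer cell markers, and it had the highest summed level of 14 endothelial markers, at 589 CPM against 273 and 357 CPM in WT livers 1 and 2 and 320 to 443 CPM in *Asgr1*-/- livers. The part of these other cells in the values of the 9 genes was not tested. Without WT liver 3, *Aldh1a1*, *Aldh1a7* and *Aldh3a2* were lower in all *Asgr1*-/- livers than in the remaining WT livers and *Adh1* still higher, 4 of 9 genes where 36% of all genes no longer overlapped in either direction.

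**Figure D4:**
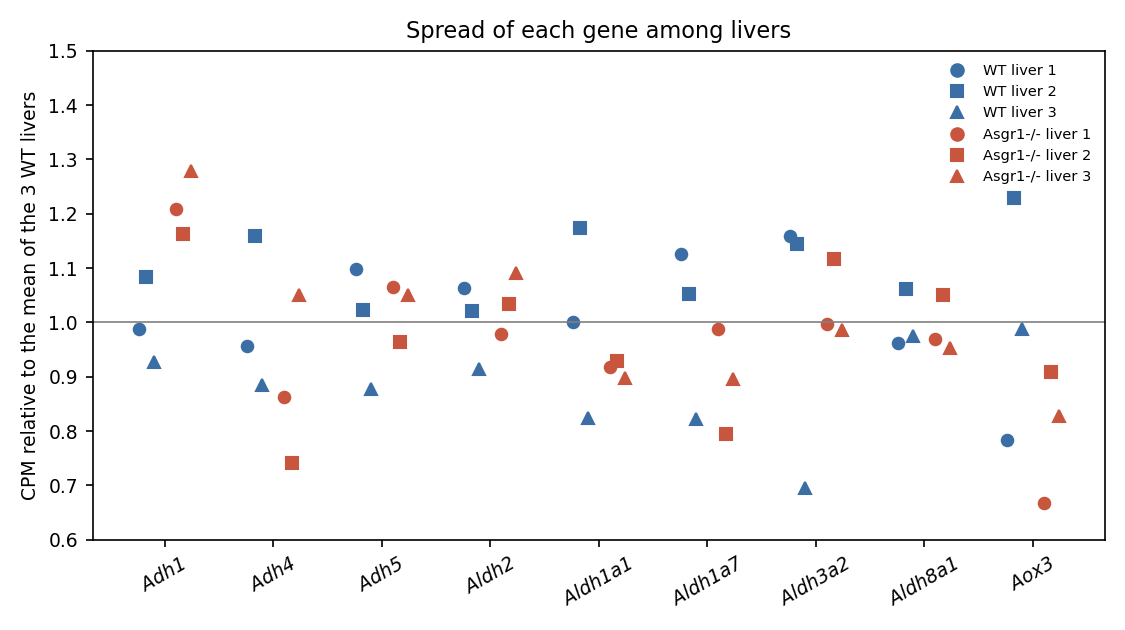
CPM of each gene in each liver divided by the mean of the 3 WT livers (vertical axis, no unit; the line at 1 is the WT mean). WT liver 3 (blue triangles) is the lowest WT liver for 7 of the 9 genes, and the *Asgr1*-/- livers are all above the WT livers for *Adh1* alone.

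The genes whose pattern over the 6 livers was most like that of *Adh1*, by Pearson's r of log2 CPM, were *Alg5* (r = 0.995), *Zfp623* (r = 0.994) and *Hcn3* (r = 0.991). The 6 livers include the genotype difference, and 128 genes had an r above 0.9, so this is a description of likeness over few points. *Alg5*, which encodes a glucosyltransferase of the dolichol pathway of N-glycosylation, ran from 32.1 to 35.2 CPM in WT and from 35.9 to 38.3 CPM in *Asgr1*-/- livers. None of these 3 genes passed the test.

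Other genes of these pathways were read from 5 lists. Of 81 genes in the table, 60 had a mean FPKM of at least 1 and were tested, and 0 of the 60 passed the adjusted p of 0.05 in edgeR's quasi-likelihood test. At an unadjusted p under 0.05 there were 9 of the 60, or 15%, with 3 higher and 6 lower in *Asgr1*-/- livers, close to the 15.5% of all genes. Their median log2 fold change was -0.03. DESeq2, which called 3.89% of all genes, called 3 of the 60, *Acss2*, *Aldh1b1* and *Rdh11*, all lower in *Asgr1*-/- livers.

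Of the other alcohol dehydrogenases, *Adh7* and *Adhfe1* were tested, and *Adh6a* and *Adh6b* stayed below 1 FPKM. *Adh7*, the class IV enzyme gene of the stomach, lies 27608 bases from *Adh1*, and its mean was 8.6 FPKM in WT and 9.46 FPKM in *Asgr1*-/- livers, with a log2 fold change of 0.08. *Adhfe1*, which encodes a hydroxyacid-oxoacid transhydrogenase of mitochondria, had a log2 fold change of -0.04. A difference beyond the spread between livers was thus seen in neither.

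Of the other aldehyde dehydrogenases, 9 of 16 were tested, with a median log2 fold change of -0.13. *Aldh1b1*, a mitochondrial paralog of *Aldh2*, had the smallest p of the list. It had 45.1, 53.4 and 56.4 CPM in the WT livers and 38.1, 35.9 and 35.7 CPM in the *Asgr1*-/- livers. The genotypes did not overlap, with a log2 fold change of -0.50 (95% interval -0.76 to -0.23, adjusted p = 0.104 in edgeR's quasi-likelihood test and 0.0187 in DESeq2). *Aldh9a1*, which acts on aminoaldehydes, had -0.15 and *Aldh6a1*, which acts in valine breakdown, had -0.23 on the log2 scale, with adjusted p of 0.488 and 0.45 from edgeR's quasi-likelihood test.

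Of the retinoid enzymes, carriers and receptors, 27 of 34 were tested, with a median log2 fold change of -0.03. *Rdh11*, a retinal reductase of the endoplasmic reticulum, had the lowest log2 fold change. It had 84, 52.6 and 49.5 CPM in the WT livers and 30.8, 14.6 and 27.5 CPM in the *Asgr1*-/- livers. All *Asgr1*-/- livers lay below all WT livers, with a log2 fold change of -1.35 (95% interval -1.99 to -0.71), but the adjusted p was 0.0805 in edgeR's quasi-likelihood test, 9.48e-05 in DESeq2 and 0.0242 in edgeR without WT liver 3. *Rara*, a retinoic acid receptor gene, and *Rdh16*, a retinol dehydrogenase gene, had -0.38 and -0.42 on the log2 scale, with adjusted p of 0.227 and 0.283 from edgeR's quasi-likelihood test. *Rdh9*, named after its values were seen, had -0.74 with overlap between the genotypes.

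Of the other molybdenum hydroxylases and the genes that make the cofactor of *Aox3*, 10 of 12 in the table were tested, with a median log2 fold change of 0.04. *Mocs1*, which acts in the first step of cofactor synthesis, had 0.35 (adjusted p = 0.173, edgeR's quasi-likelihood test) and *Mocs3*, which acts in a later one, had 0.42 (adjusted p = 0.271). In both, all *Asgr1*-/- livers were above all WT livers. *Xdh*, the xanthine dehydrogenase gene, had -0.21 (adjusted p = 0.376, edgeR's quasi-likelihood test). *Aox1*, another aldehyde oxidase gene, named after its values were seen, averaged 12.6 FPKM in WT and 14.9 FPKM in *Asgr1*-/- livers. Its log2 fold change was 0.19, with overlap between the genotypes (adjusted p = 0.498, edgeR's quasi-likelihood test).

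Of other genes that clear ethanol and aldehydes, 12 of 15 were tested, with a median log2 fold change of -0.06. *Acss2*, the cytosolic acetyl-CoA synthetase that uses the acetate formed from ethanol, had 232, 192 and 164 CPM in the WT livers and 146, 83.5 and 139 CPM in the *Asgr1*-/- livers. The genotypes did not overlap, with a log2 fold change of -0.67 (95% interval -1.15 to -0.20, adjusted p = 0.184 in edgeR's quasi-likelihood test and 0.0393 in DESeq2). *Akr7a5*, an aldehyde reductase gene, had 0.31 and *Cbr1*, a carbonyl reductase gene, 0.22 on the log2 scale, with adjusted p of 0.263 and 0.502 from edgeR's quasi-likelihood test.

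**Figure D5:**
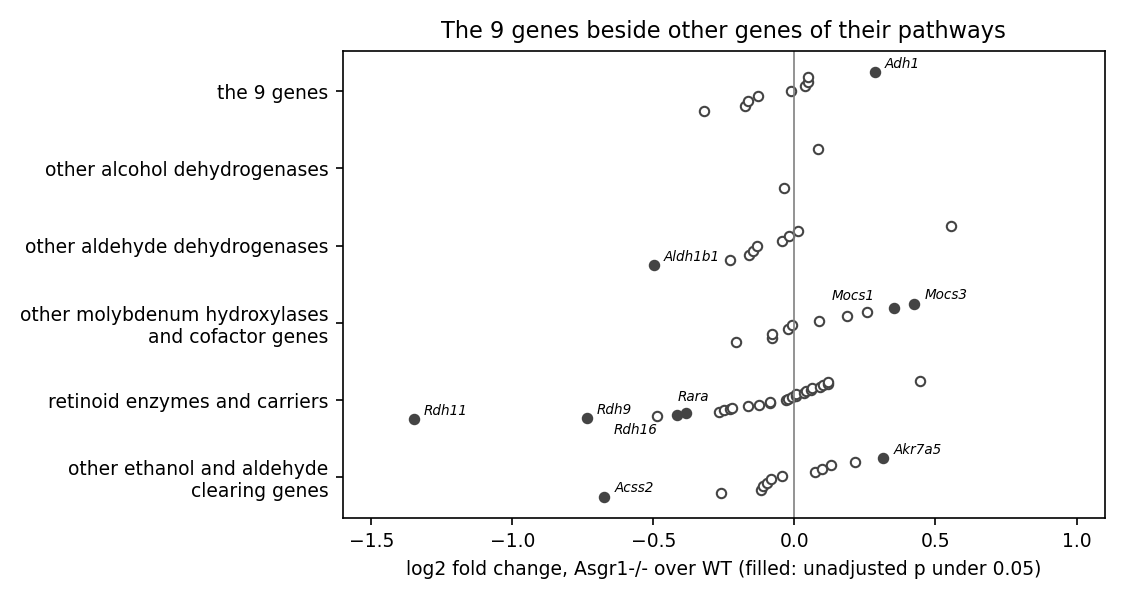
Log2 fold change, *Asgr1*-/- over WT, of the 9 genes and of the 60 tested genes of the 5 related lists, 1 point per gene, filled where the unadjusted p was under 0.05 (n = 3 livers in each genotype). Among the 60, 3 filled points lie to the right of 0 and 6 to the left, with *Rdh11* at -1.35 farthest out.

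The marker genes of xenobiotic receptors are given here because *Aldh1a1* and *Aldh1a7* are known in mice to be induced through CAR. Of 9 tested CAR and PXR marker genes 3 rose, *Cyp3a11* (log2 fold change 3.85, adjusted p = 9.26e-06), *Gstm3* (1.40, adjusted p = 0.0431) and *Ces2a* (0.96, adjusted p = 0.0448), and 0 fell in edgeR's quasi-likelihood test. Of all genes tested, 0.295% were called in either direction. The marker lists were chosen with earlier results of these data known, so these counts are a description and not a test of the lists. Over the 9 marker genes, 6 log2 fold changes were positive, with a median of 0.36. The lowest was -2.45, for *Cyp2b9*, with overlap between the genotypes. *Cyp2b10*, named after its values were seen, averaged 1.03 FPKM in WT and 0.673 FPKM in *Asgr1*-/- livers and was below the limit for testing. Of 10 tested NRF2 marker genes 1 rose, *Gsta1* (2.26, adjusted p = 0.0245), with *Gstm1* (0.77, adjusted p = 0.057) and *Srxn1* (0.55, adjusted p = 0.145) next by p in edgeR's quasi-likelihood test. *Gsta1* averaged only 0.627 FPKM in WT and 3.15 FPKM in *Asgr1*-/- livers, so it reached the limit for testing only through the *Asgr1*-/- livers. Over the 10 NRF2 marker genes, 7 log2 fold changes were positive, with a median of 0.26. The lowest was -0.78, for *Hmox1*, with overlap between the genotypes. *Aldh1a1* and *Aldh1a7* had log2 fold changes of -0.13 and -0.16, both with intervals that included 0, and neither was called. The part of CAR, PXR or NRF2 in the values of both genes was not tested.

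Because zones and cell types of the liver differ in these enzymes, their markers were read in the same edgeR fit, and 0 passed the adjusted p in any of the following lists. At an unadjusted p under 0.05 there were 3 lower of 11 pericentral genes, 1 higher and 4 lower of 12 periportal genes and 2 higher of 3 cholangiocyte genes. The Kupffer cell, endothelial and stellate cell lists had 0, and 15.5% of all genes tested reached that level. The median log2 fold change was -0.18 over 11 pericentral genes (smallest p for *Rhbg*, *Slc1a2* and *Glul*), -0.30 over 12 periportal genes (*Pigr*, *Pck1* and *Sds*), -0.64 over 14 Kupffer cell genes (*Folr2*, *Cd68* and *Clec4f*) and -0.15 over 14 endothelial genes (*Stab1*, *Lyve1* and *Clec4g*). It was 0.10 over 6 stellate cell genes (*Dcn*, *Des* and *Colec11*), with levels of 123 to 234 CPM summed over the whole list in WT and 174 to 203 CPM in *Asgr1*-/- livers, and 1.20 over 3 cholangiocyte genes (*Epcam*, *Krt19* and *Spp1*), with 39.5 to 52.9 CPM and 52.4 to 65.2 CPM. No marker of any list was at 0 in all livers. Their part in the values of the 9 genes was not tested.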

How the data were processed

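Liver mRNA of 3 WT and 3 *Asgr1*-/- mice was measured by RNA-Seq, 1 library per mouse. GENEWIZ processed the reads, and the submitters' notes name the build GRCm38 and DESeq2 1.6.3. The sources used here do not name the aligner or the counting tool, nor the use of strand or the read length. The authors deposited raw counts per gene and FPKM for 55401 genes, and the deposited FPKM equal counts divided by exonic size and library total within 0.005. The 10167 genes whose FPKM averaged 1 or more across all 6 livers, with 98.85% of the counts, entered edgeR's quasi-likelihood test on the counts, two-sided and with TMM factors. P values were adjusted over all of them by Benjamini-Hochberg, with a call at an adjusted p of less than 0.05. Intervals are 95%. The member counts ranged from 2004 to 103853 per library, so the spread between mice and not counting limits precision. Replicates differed beyond sampling noise (chi-square 25.7 to 71.8 per degree of freedom), so none was a second reading of the same library. This check cannot tell separate libraries of 1 mouse from libraries of different mice.

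Members and gene lists were chosen with earlier results of these data known. Named were all 9 members, *Asgr1*, from each list the called genes or, where fewer than 3 were called, those with the smallest p up to 3, and the 3 genes most like the member with the smallest p. Alternatives were no filter or edgeR's own filter, other size factors, DESeq2, limma on log2(FPKM + 0.1) and log2(FPKM + 1), robust fits, a replicate block, summed paralogs and leaving out each liver. Python 3.11.15, R 4.3.3, DESeq2 1.42.0, edgeR 4.0.16 and limma 3.58.1 were used.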

Additional observations from a re-analysis of the deposited data

How the results depend on the processing

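The 9 genes gave 0 calls in the reported fit and in each of the alternatives run. Over all genes the 30 calls became 618 with no filter, 396 with DESeq2, 84 with robust edgeR, 34 with edgeR's own filter, 45 on total counts, 11 and 16 with limma at pseudocounts of 0.1 and 1, and 3 to 319 when a liver was left out (319 without WT liver 3). The causes were not tested. At an unadjusted p under 0.05 the count of 1 among the 9 genes became 2 with no filter and 0 to 1 when a liver was left out (0 without WT liver 3, *Asgr1*-/- liver 1 or *Asgr1*-/- liver 3). Of all genes tested, 15.5% reached that level in the reported fit, and this share was not taken for the alternatives. Without WT liver 1 the 1 gene was *Aox3* (edgeR's unadjusted p 0.0158) and not *Adh1* (0.0505), and with the replicate block it was again *Aox3* (0.031) and not *Adh1* (0.0658). The count of 1 without overlap became 1 to 4 when a liver was left out, with 2 without WT liver 1 (*Aox3* added), 4 without WT liver 3 and 2 without *Asgr1*-/- liver 3 (*Adh4* added). Of all genes, 21.9% did not overlap with all livers. That share was 38.2% without WT liver 1, 36% without WT liver 3 and 29.2% without *Asgr1*-/- liver 3. Pathway genes gave 4 calls with no filter (*Acss2*, *Aldh1b1*, *Rdh9* and *Rdh11*), 3 with DESeq2 and 0 to 1 when a liver was left out. *Adh1* kept a positive log2 fold change in 16 of 16 alternatives (0.23 to 0.34, adjusted p 0.157 to 0.597 over edgeR, DESeq2 and limma), *Aldh1a7* a negative one in 16 of 16 and *Aox3* a negative one in 15 of 15 (-0.47 to -0.15, adjusted p 0.181 to 0.773). *Adh4* was negative in 15 of 16 alternatives, and the other 1 was not *Adh4* alone but the 3 Adh genes summed (0.25), which is mostly *Adh1*. This sum is also among the 16 alternatives of *Adh1*, and the sum of *Aldh1a1* and *Aldh1a7* is among those of *Aldh1a7*. The sign turned for *Aldh8a1* (0.0047 with edgeR's own filter, 0.0421 on total counts, 0.0418 and 0.0412 with limma). When a liver was left out, *Adh5* ranged from -0.0466 to 0.111, *Aldh2* from -0.0106 to 0.0944 and *Aldh3a2* from -0.156 to 0.166, all negative only without WT liver 3, *Aldh1a1* from -0.249 to 0.0034, positive only without WT liver 2, and *Aldh8a1* from -0.0433 to 0.0317. With the replicate block, 23 genes were called and 0 of the 9. Livers of the same number correlated at -0.168, 0.0241 and -0.034 in their deviations, so the numbers were not taken as pairs.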
